A study of Homo sapiens with 18 samples.

Results

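The 10 genes described here are core genes of autophagy together with SQSTM1, a receptor that brings cargo to the autophagosome. They were chosen by name and function, as ULK1, BECN1, WIPI1, ATG7, ATG5, MAP1LC3B, GABARAP, GABARAPL1, GABARAPL2 and SQSTM1, out of 38716 gene symbols in the tables. A wider list of 60 autophagy genes, with these 10 among them, gives the rest of the pathway. They were followed in IMR90, fibroblasts derived from human fetal lung and grown as a cell line. Young cells were of low passage and proliferating. Old cells were of high passage and had reached replicative senescence, the arrest that follows many divisions. ICM cells were of low passage and had been given inflachromene, a small molecule that binds HMGB1 and HMGB2, and the labels give neither its dose nor its duration. No genetic change is named for any group, and all 3 groups come from the same cell line. By the sample titles each group had 3 mRNA-seq and 3 Ribo-seq libraries (the series' design text gives other replicate numbers), where Ribo-seq sequences the stretches of mRNA that ribosomes shield from nuclease (footprints). Each lysate served both assays and is named by condition and replicate number.

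Autophagy wraps cytoplasmic material in a double membrane and delivers it to the lysosome. The kinase ULK1 starts the process, a lipid kinase complex with BECN1 marks the membrane, WIPI1 binds that mark, and ATG7 and ATG5 belong to the machinery that couples the small ATG8 proteins (MAP1LC3B and the GABARAP proteins) to lipid in the growing membrane. SQSTM1, also called p62, binds ubiquitin-tagged cargo and ATG8 proteins and is degraded with its cargo, so mRNA and footprint levels say nothing of autophagic flux. Autophagy genes are of interest in senescence, where lysosomes and secretion expand, and cytoplasmic HMGB1 is known to bind Beclin 1, the product of BECN1.

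How far a read can be given to 1 member depends on sequence, so the stretches that separate members from their copies are shown first. Positions are on GRCh37 with GENCODE gene models. MAP1LC3B (chr16:87417559-87438385, + strand, coding length 375 bases in 4 exons) has a near-identical protein-coding copy, MAP1LC3B2 (chr12:116985910-117014411, + strand). Over 378 bases from the start codon through the stop codon, the coding sequences differ at 2 positions, counted from 1 at the A of the start codon, C30G and A338G with the base of MAP1LC3B first. They share an unbroken identical run of 307 bases, from 31 to 337. The lines give coding bases 16 to 45 and then 324 to 353 of each, with the differing base in capitals.
MAP1LC3B, 16 to 45: accttcaagcagcgCcgcaccttcgaacaa
MAP1LC3B2, 16 to 45: accttcaagcagcgGcgcaccttcgaacaa
MAP1LC3B, 324 to 353: cctgtacatggtctAtgcctcccaggagac
MAP1LC3B2, 324 to 353: cctgtacatggtctGtgcctcccaggagac
Of the 348 windows of 28 bases (about a footprint) in the MAP1LC3B coding sequence, 300 (86.2%) also occurred in another annotated gene.

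GABARAPL1 (chr12:10365057-10375727, + strand, coding length 351 bases in 4 exons) has the processed pseudogene GABARAPL3 (chr15:90892076-90892429, - strand). The pair differs at 16 of 354 positions, so that 75 of 324 footprint-sized windows (23.1%) were shared. The first difference, A23T with the base of GABARAPL1 first, lies in coding bases 9 to 38.
GABARAPL1, 9 to 38: ccagtacaaggaggAccatccctttgagta
GABARAPL3, 9 to 38: ccagtacaaggaggTccatccctttgagta
GABARAP (chr17:7143327-7145768, - strand, 351 coding bases in 4 exons) shares 691 of its 1951 exon bases with a same-strand gene model, ENSG00000262526, and 260 of its 324 windows (80.2%) occurred elsewhere. The coding sequences of the other 7 members had 0 shared windows.

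The copies showed in the counts. MAP1LC3B and MAP1LC3B2 had equal numbers of coding (CDS) reads in 16 of 18 libraries and differed by 1 read in the other 2, while their 3′ UTR reads did not match, with 847.5 against 43.5 in the mRNA-seq of young replicate 1. Reads in GABARAPL3 were 1.03 to 1.24 times the GABARAPL1 CDS reads in mRNA-seq. The footprints of MAP1LC3B and GABARAP are therefore uncertain as those of a single gene, and those of GABARAPL1 in part.

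The other members lie at single loci, given here on GRCh37. SQSTM1 spans chr5:179233398-179265078 on the + strand with 1320 coding bases in 8 exons, and GABARAPL2 spans chr16:75600273-75611779 on the + strand with 351 in 4 exons. ULK1 spans chr12:132379167-132407695 (+, 3150 coding bases, 28 exons) and BECN1 chr17:40962152-40985367 (-, 1350 coding bases, 12 exons). WIPI1 spans chr17:66417089-66453654 (-, 1338 coding bases, 13 exons). ATG5 spans chr6:106493298-106773666 (-, 825 coding bases, 8 exons) and ATG7 chr3:11313995-11599139 (+, 2109 coding bases, 21 exons). Exons of several members overlap a gene on the opposite strand, 1582 of 7535 exon bases for SQSTM1 (with MRNIP), 829 of 3403 for WIPI1 (with ARSG), 1597 of 8833 for ATG7 (with VGLL4) and 795 of 6413 for BECN1 (with CNTD1). Whether strand was used in counting was not stated, so reads of such partners cannot be told apart there.

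The mRNA-seq libraries held 7902430 to 14144500 reads in coding genes, and the Ribo-seq libraries 46239 to 1718520 CDS reads. Levels are given as CPM, read counts scaled to the depth of the library with TMM factors, which sets the libraries on a common base. 1 Ribo-seq read was worth 0.636 to 22.8 CPM. All 8 fibroblast markers were expressed, with summed mRNA levels of 28712 to 32517 CPM in young, 27034 to 30391 CPM in old and 12152 to 12632 CPM in ICM. The summed epithelial markers were at 312 to 333, 242 to 265 and 44.7 to 50.6 CPM, nearly all from keratins, with EPCAM at or under 1.05 and CDH1 at or under 0.654 CPM. Endothelial markers summed to 0.600 to 4.52 CPM, with CDH5 at 0, and leukocyte markers to 19.5 to 66.0 CPM, almost all from CD68, with CD3E at 0. MKI67, a proliferation marker, averaged 153, 30.9 and 0.789 CPM in young, old and ICM, and CDKN1A, an arrest gene, 514, 1551 and 3315 CPM. HMGB1 averaged 379, 144 and 114 CPM and HMGB2 110.2, 20.3 and 5.12 CPM. The part of these state changes in the results for the autophagy genes was not tested. In bulk libraries, fewer cells of a kind and less RNA per cell cannot be told apart.

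The Ribo-seq libraries young 1, old 2 and ICM 3 stood apart. Results without all 3 are given for SQSTM1, WIPI1 and the number of members called, and elsewhere only in part. The footprint changes of MAP1LC3B and GABARAPL2 are given only with them in. These 3 libraries were the shallowest, at 54421, 54708 and 46239 CDS reads. For 7 genes that mRNA-seq found at least 50-fold higher in ICM than in young and in old, summed footprints were at 654 and 795 CPM in young 1 and old 2, against 69.0 to 92.0 CPM in the other young and old libraries and 4076 to 6467 CPM in ICM. For 25 genes at least 50-fold higher in young than in ICM, footprints were at 1016 CPM in ICM 3, against 61.6 and 232 CPM in the other ICM libraries and 2131 to 2265 CPM in young.

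SQSTM1 mRNA was 5.58-fold higher in ICM than in young cells, and old cells stayed near the young level. Against young, MAP1LC3B mRNA was 2.12-fold higher in old and 2.04-fold in ICM, and WIPI1 mRNA 2.52-fold and 2.95-fold. GABARAPL2 mRNA rose more in old than in ICM, GABARAPL1 mRNA rose more in ICM than in old, and ATG7 mRNA fell in ICM. The core genes ULK1, BECN1 and ATG5 moved by at most 0.31 on the log2 scale against young. Tests were made with edgeR's quasi-likelihood method over all genes of an assay, with Benjamini-Hochberg adjustment and a threshold of 0.05, and log2 changes carry a standard error (SE). Per the study's methods the replicates of each condition were grown independently, and the p-values measure the spread between these samples. The comparisons of ICM and old with young use the same young libraries.

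SQSTM1 mRNA was at 749, 779 and 762 CPM in young, 705, 658 and 727 CPM in old, and 4166, 4394 and 4213 CPM in ICM. All ICM libraries lay far above all others, and every old library lay below every young one by a small margin. The log2 difference of ICM from young was 2.48 (SE 0.065, edgeR adjusted p = 4.03e-19), and from old 2.61 (SE 0.065, edgeR adjusted p = 2.09e-19). The difference of old from young, -0.13, did not pass (SE 0.062, edgeR adjusted p = 0.0638). Ranked among all genes by CPM, SQSTM1 mRNA stood at 143 to 158 in young, 189 to 218 in old and 6 to 7 in ICM. The 3′ UTR held 24.9% ± 1.45 of its mRNA reads in young libraries (mean ± SD, n = 3), 24.9% ± 2.04 in old and 23.7% ± 1.56 in ICM ones, shares that differed by less than the spread between replicates.

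SQSTM1 footprints were at 2079.8, 1341 and 1197 CPM in young (105, 839 and 1882 reads), 1512, 1529 and 1424 CPM in old (2126, 76 and 694 reads), and 7746, 7189 and 4932 CPM in ICM (1572, 527 and 216 reads). The ICM libraries again lay above all others, and young and old overlapped. The highest young value and the lowest ICM value came from young 1 and ICM 3, libraries that stood apart. ICM exceeded young 4.61-fold (log2 2.21, SE 0.19, edgeR adjusted p = 2.72e-11) and old 4.51-fold (log2 2.17, SE 0.19, edgeR adjusted p = 2.52e-11). Without young 1, old 2 and ICM 3, the log2 difference of ICM from young was 2.46 and from old 2.22. Old and young differed by 0.03 (SE 0.19, edgeR adjusted p = 0.908), with a 95% interval from -0.33 to 0.40. By rank, SQSTM1 footprints stood at 4, 5 and 8 among all genes in ICM, 80 to 102 in old and 40 to 93 in young. Of SQSTM1 footprints, 98.7% lay in the CDS in young, 97.3% in old and 99.7% in ICM (means, n = 3).

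**Figure D1:**
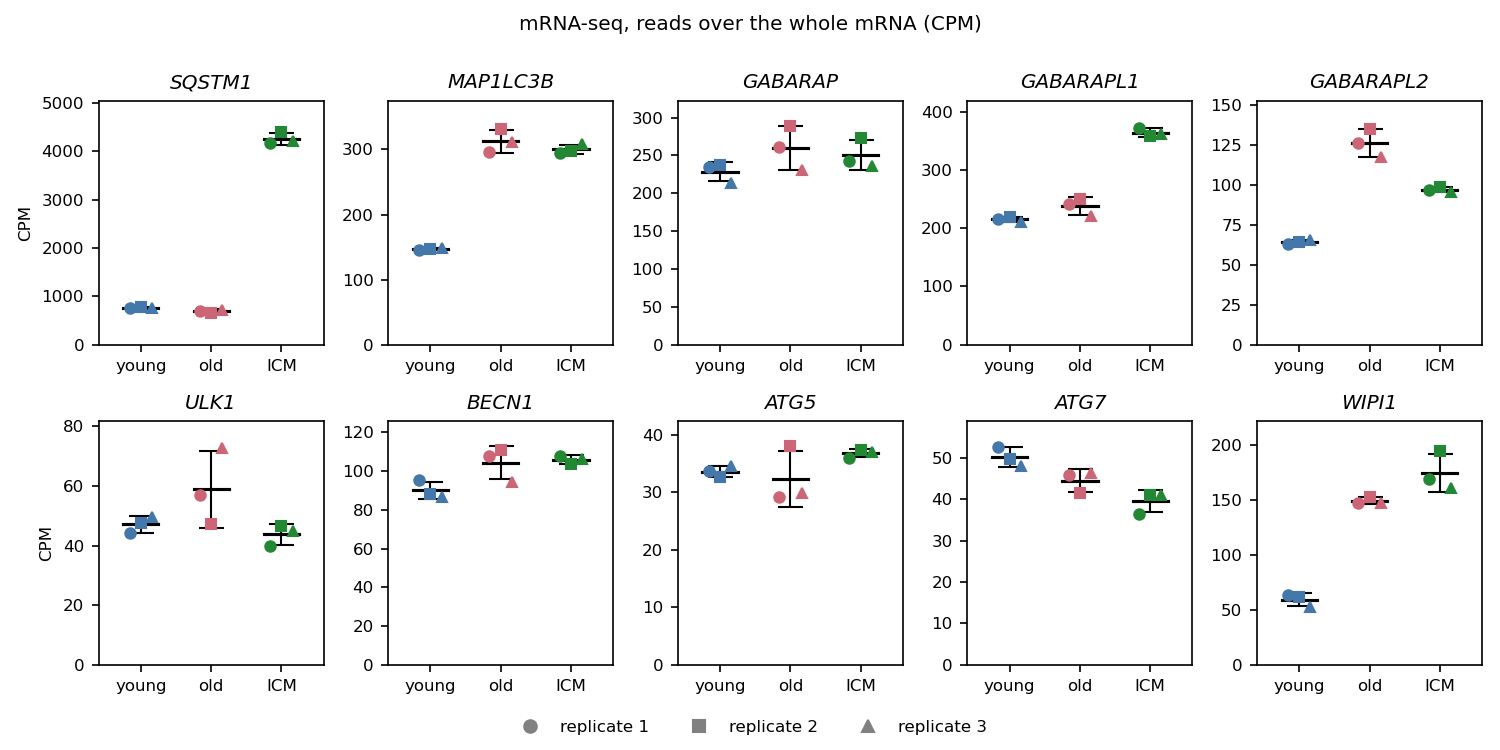
mRNA-seq level of each of the 10 genes in CPM (vertical axes from 0, scaled per gene) in young, old and ICM, with 1 point per replicate and the mean ± SD of 3. SQSTM1 in ICM lay between 4166 and 4394 CPM against 658 to 779 CPM elsewhere, and MAP1LC3B and WIPI1 stood higher in both old and ICM than in young.

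Among the ATG8 proteins, MAP1LC3B, the LC3 protein most often used to mark autophagosomes, was at 146, 147 and 149 CPM in young, 295, 331 and 311 CPM in old and 295, 297 and 308 CPM in ICM. The old and ICM libraries overlapped each other and lay well above young. The log2 change was 1.09 in old (SE 0.062, edgeR adjusted p = 9.11e-13) and 1.03 in ICM (SE 0.062, edgeR adjusted p = 1.15e-12). ICM and old differed by -0.06 (SE 0.060, edgeR adjusted p = 0.395). Both rises passed under all 19 alternatives, with MAP1LC3B2 reads added in 1 of them. They ranged from 0.91 to 1.13 in old and from 0.83 to 1.05 in ICM.

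GABARAPL2, an ATG8 protein also studied in Golgi transport, was at 62.7, 64.3 and 65.4 CPM in young, 126, 135 and 117 CPM in old and 96.5, 98.7 and 95.6 CPM in ICM. The 3 groups did not overlap, with old highest. It rose 1.97-fold in old (log2 0.97, SE 0.066, edgeR adjusted p = 1.63e-11) and 1.51-fold in ICM (log2 0.59, SE 0.066, edgeR adjusted p = 4.41e-08), and ICM was below old by 0.38 (log2 -0.38, SE 0.063, edgeR adjusted p = 1.69e-05).

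GABARAPL1 was at 216, 219.5 and 209.8 CPM in young, 241, 250.4 and 220.3 CPM in old and 372, 358 and 361 CPM in ICM. The ICM libraries lay above all others, and the lowest old library was barely above the highest young one. The rise in ICM was 1.69-fold against young (log2 0.76, SE 0.062, edgeR adjusted p = 2.55e-10) and 1.53-fold against old (log2 0.62, SE 0.061, edgeR adjusted p = 1.06e-08). The rise in old, 0.14, was just past the threshold (SE 0.062, edgeR adjusted p = 0.0479) and was lost under 12 of 19 alternatives. GABARAP was at 235, 238 and 214 CPM in young, 261, 288 and 230.1 CPM in old and 243, 273 and 236 CPM in ICM. Young overlapped with both other groups, and the rise in old was 0.18 (SE 0.077, edgeR adjusted p = 0.0409), lost under 4 of 19 alternatives. In ICM, GABARAP differed from young by 0.13 (SE 0.077, edgeR adjusted p = 0.132).

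Together the 4 ATG8 members held 655 ± 15.8 CPM in young cells (mean ± SD over 3 libraries), 936 ± 63.8 CPM in old and 1011 ± 13.7 CPM in ICM, so the sum was higher in old and ICM with a different make-up. MAP1LC3B made up 22.5% ± 0.744 of the ATG8 reads in young, 33.5% ± 1.77 in old and 29.7% ± 0.973 in ICM. GABARAPL1 made up 32.8% ± 0.0798 in young, 25.4% ± 0.657 in old and 36.0% ± 1.07 in ICM. The GABARAP share was 34.9% ± 1.20, 27.7% ± 1.34 and 24.8% ± 1.61, and the GABARAPL2 share 9.79% ± 0.400, 13.5% ± 0.159 and 9.58% ± 0.0343, in the same order. These shares are of reads, not of molecules, since the transcripts differ in length.

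**Figure D2:**
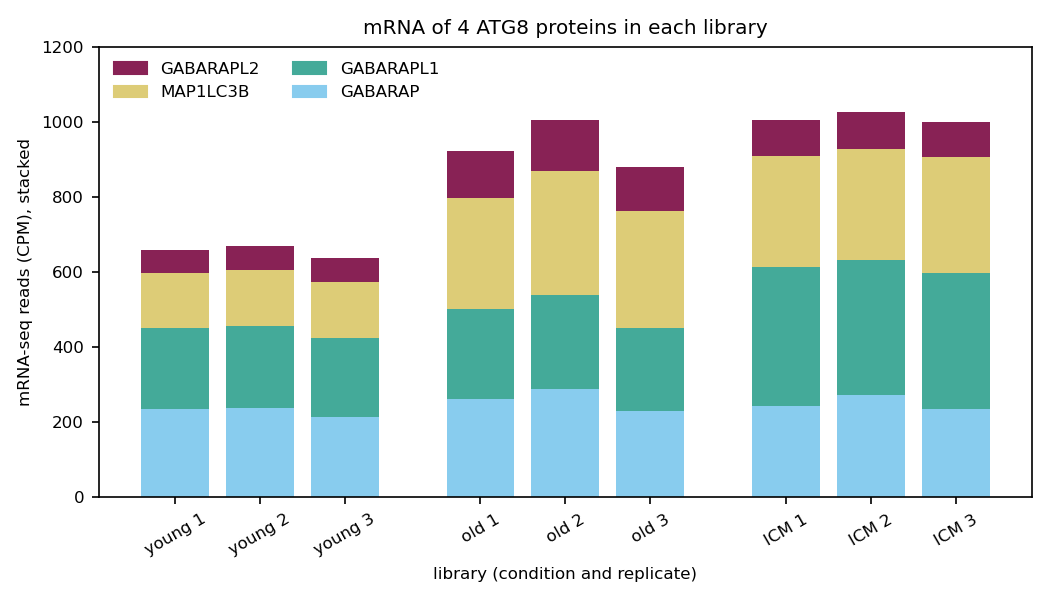
Stacked mRNA-seq CPM of MAP1LC3B, GABARAP, GABARAPL1 and GABARAPL2 in each of the 9 libraries, with the axis from 0 and no correction for length. The summed level was 655 ± 15.8 CPM in young, 936 ± 63.8 CPM in old and 1011 ± 13.7 CPM in ICM, with GABARAPL1 a larger share in ICM and GABARAPL2 a larger share in old.

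In footprints the ATG8 members moved less clearly. MAP1LC3B footprints were at 109, 98.6 and 85.8 CPM in young, 162, 104 and 120.1 CPM in old, and 92.8, 72.8 and 68.5 CPM in ICM, the ICM values resting on 18.8, 5.33 and 3 reads. Old overlapped young, and ICM lay below old. The rise in old was 0.62 (SE 0.23, edgeR adjusted p = 0.0336), lost under 8 of 19 alternatives, and ICM differed from young by -0.15 (SE 0.37, edgeR adjusted p = 0.797), with a 95% interval from -0.86 to 0.57.

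GABARAPL2 footprints were at 79.2, 107 and 87.8 CPM in young, 192, 121 and 117 CPM in old and 133, 123 and 0 CPM in ICM. All old libraries lay above young, with the highest value in old 1, and no read fell on the gene in ICM 3, where a count of 0 allows up to 3 reads. The rise in old was 0.75 (SE 0.26, edgeR adjusted p = 0.0207). It was lost under 6 of 19 alternatives, and without old replicate 1 the rise of GABARAPL2 was 0.26 (edgeR adjusted p = 0.695). GABARAPL1 footprints were at 39.6, 75.1 and 60.8 CPM in young, 67.6, 40.2 and 61.6 CPM in old and 138, 81.8 and 91.3 CPM in ICM (28, 6 and 4 reads). The ICM values lay above all others, but the difference from young, 0.83, did not pass (SE 0.36, edgeR adjusted p = 0.0814). With GABARAPL3 reads added it passed, with an edgeR adjusted p of 0.0432. GABARAP footprints ranged from 129 to 241 CPM over the 9 libraries with all groups overlapping, and its log2 differences ran from 0.03 to 0.25.

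WIPI1, which binds the lipid that the BECN1 complex makes, rose in both old and ICM cells. Its mRNA was at 63.3, 61.9 and 52.7 CPM in young, 147, 153 and 147 CPM in old and 169, 195 and 161 CPM in ICM. Old and ICM lay above young without overlap, and ICM lay above old. The rise was 2.52-fold in old (log2 1.33, SE 0.079, edgeR adjusted p = 1.90e-12) and 2.95-fold in ICM (log2 1.56, SE 0.079, edgeR adjusted p = 5.14e-14). ICM exceeded old by 0.23 (SE 0.073, edgeR adjusted p = 0.00970), and this was lost without ICM replicate 2 (edgeR adjusted p for WIPI1 of 0.101).

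WIPI1 footprints were also higher, at 19.8, 32.0 and 38.2 CPM in young (1, 20 and 60 reads), 76.8, 101 and 86.2 CPM in old (108, 5 and 42 reads) and 108, 109 and 114 CPM in ICM (22, 8 and 5 reads). Old and ICM lay above all young libraries. The rise was 1.19 in old (SE 0.29, edgeR adjusted p = 0.00137) and 1.62 in ICM (SE 0.39, edgeR adjusted p = 0.00190). Without young 1, old 2 and ICM 3 these were 1.16 and 1.49, still past the threshold. WIPI1 in old was lost with DESeq2 (adjusted p = 0.0625) and without young replicate 2 (edgeR adjusted p = 0.0767), and in ICM without ICM replicate 1 (edgeR adjusted p = 0.0631).

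ULK1, the kinase that starts autophagy, had mRNA at 44.1, 47.7 and 49.7 CPM in young, 56.9, 47.1 and 72.6 CPM in old and 39.8, 46.6 and 44.9 CPM in ICM. Old varied most and overlapped with young. The rise in old was 0.31 (SE 0.11, edgeR adjusted p = 0.0170), and it was lost without old replicate 3 (edgeR adjusted p for ULK1 of 0.219) or without young replicate 1 (0.0561). ICM differed from young by -0.11 (SE 0.11, edgeR adjusted p = 0.371) and was below old (log2 -0.42, SE 0.11, edgeR adjusted p = 0.00179). BECN1, the scaffold of the lipid kinase complex, was at 95.2, 88.3 and 86.8 CPM in young, 108, 111 and 94.4 CPM in old and 108, 104 and 106 CPM in ICM. Both other groups were slightly higher than young, with overlap for old. The rise was 0.21 in old (SE 0.069, edgeR adjusted p = 0.00935) and 0.24 in ICM (SE 0.068, edgeR adjusted p = 0.00396), and ICM and old differed by 0.02.

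ATG7, the E1-like enzyme that activates ATG8 proteins, was at 52.6, 49.7 and 47.9 CPM in young, 45.7, 41.4 and 46.3 CPM in old and 36.4, 41.1 and 41.0 CPM in ICM. It was the one member below young in both groups without overlap. The fall passed in ICM (log2 -0.34, SE 0.076, edgeR adjusted p = 3.85e-04) and not in old (log2 -0.17, SE 0.076, edgeR adjusted p = 0.0509). ATG5, part of the conjugate that places ATG8 proteins on lipid, stayed between 29.1 and 38.0 CPM in all 9 libraries, and its log2 differences of -0.04 to 0.17 did not pass. Footprints on these genes were few. ATG7 had 0 to 87 CDS reads per library and no difference past the threshold, while ULK1 (0 to 44 reads), BECN1 (0 to 63 reads) and ATG5 (0 to 52 reads) were below the expression filter and were not tested in Ribo-seq.

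**Figure D3:**
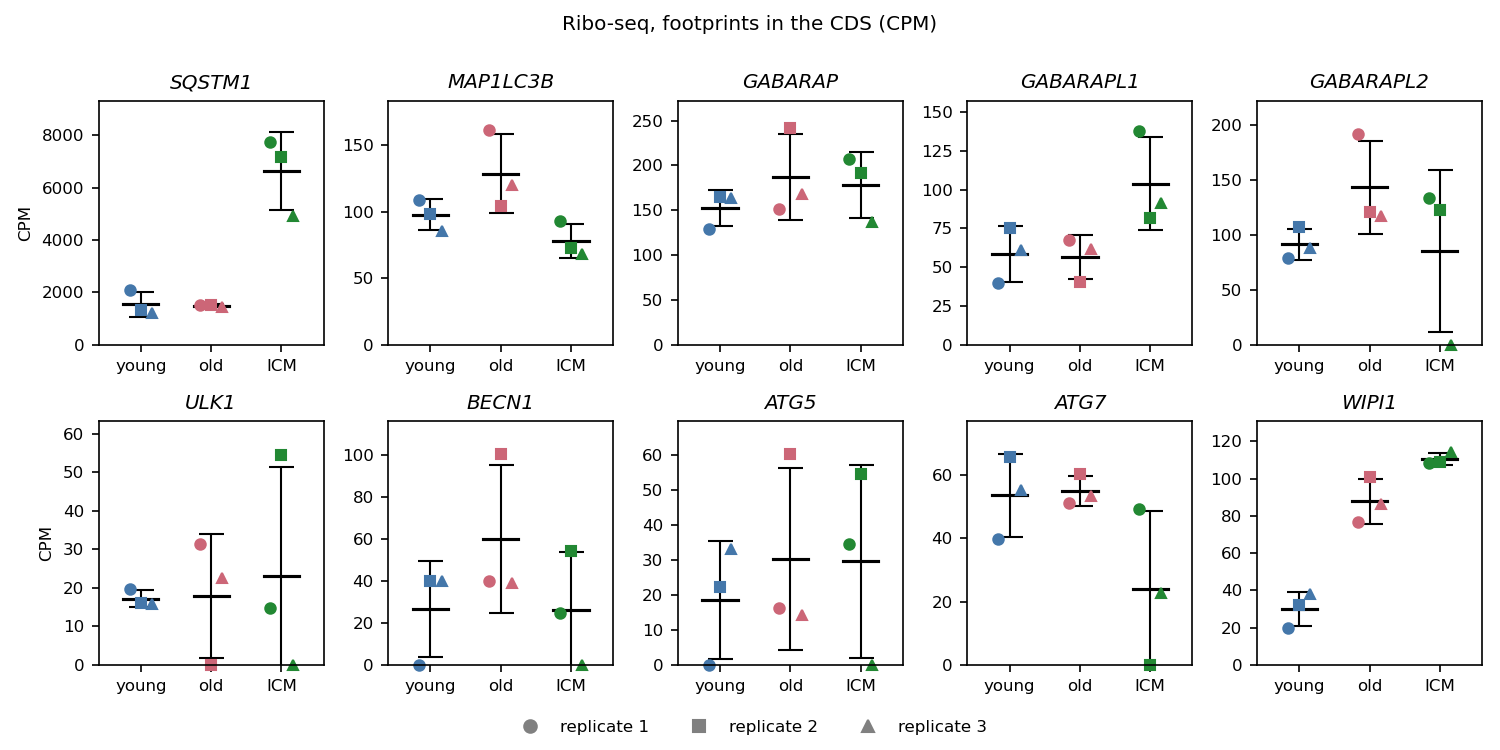
Ribo-seq level of each of the 10 genes in CPM of CDS reads (vertical axes from 0, scaled per gene), with 1 point per replicate and the mean ± SD of 3 per condition. SQSTM1 in ICM lay between 4932 and 7746 CPM against 1197 to 2079.8 CPM elsewhere, WIPI1 was lowest in young, and points at 0 are libraries with no read on the gene.

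Per kilobase of coding sequence, with reads as the tables assign them, SQSTM1 (401 ± 5.37 CPM per kb of CDS, mean ± SD, n = 3) and GABARAP (347 ± 26.3) led the members in young mRNA-seq. GABARAPL1 (103 ± 4.32) and GABARAPL2 (97.8 ± 10.8) followed with overlapping values, and ULK1 (9.12 ± 0.701) was lowest. In old, GABARAP (399 ± 45.3) and SQSTM1 (365 ± 24.4) overlapped, and GABARAPL2 was at 201 ± 15.0 and MAP1LC3B at 123 ± 9.18. In ICM, SQSTM1 reached 2247 ± 85.1 CPM per kb, followed by GABARAP at 392 ± 27.5 and GABARAPL1 at 170 ± 1.45, with MAP1LC3B (115 ± 10.5) and WIPI1 (107 ± 14.0) overlapping. In footprints per kilobase, SQSTM1 also led in every condition, at 1166 ± 359, 1128 ± 42.5 and 5017 ± 1129 CPM per kb in young, old and ICM, with GABARAP at 434 ± 57.9, 533 ± 136 and 508 ± 104. The places of MAP1LC3B and GABARAPL1 depend on how reads of their copies are assigned. That of GABARAP may do so too, as 80.2% of its footprint-sized windows occurred elsewhere, but no sum was made for it. With MAP1LC3B2 added, MAP1LC3B was at 132 ± 5.36, 245 ± 18.4 and 229.9 ± 21.0 CPM per kb in young, old and ICM mRNA-seq, above GABARAPL2 in each, and at 521 ± 61.8, 685 ± 158 and 416 ± 69.2 in Ribo-seq, which put its mean above that of GABARAP in young and old. With GABARAPL3 added, GABARAPL1 mRNA was at 214 ± 13.7, 234 ± 12.7 and 357 ± 13.4.

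Counted over the 10 members, mRNA of 7 changed in ICM against young, 6 of them higher and 1 lower, where 71.0% of all 13173 genes tested were called (34.9% up and 36.1% down). In old against young 7 changed, all higher, against 66.1% of all genes (32.4% up, 33.7% down). In ICM against old 5 changed, 3 higher and 2 lower, against 63.3% (30.7% up, 32.6% down). The numbers called were thus near the share of all genes, and the direction was mostly upward against young. The median log2 change of the members was 0.42 in ICM and 0.20 in old against young, and -0.01 in ICM against old, where the median of all genes was -0.01 in each. Values of the compared groups did not overlap for 8, 6 and 6 members, against 74.5%, 67.0% and 66.4% of all genes.

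In Ribo-seq, 7 of the 10 members passed the filter. Of these, 2 changed in ICM against young, both up (SQSTM1 and WIPI1), where 26.6% of the 4643 genes tested were called (13.7% up, 12.9% down). In old against young 3 changed, all up (WIPI1, GABARAPL2 and MAP1LC3B), against 36.3% of all genes (19.3% up, 17.0% down). In ICM against old only SQSTM1 changed, upward, against 13.4% (5.79% up, 7.62% down). These counts are again close to the shares of all genes. The counts were 2, 3 and 1 of 10 tested when young 1, old 2 and ICM 3 were left out. The 3 of old against young became 0 with DESeq2, 1 with the replicate block, 0 without young replicate 2, and 1 without young replicate 3 or old replicate 1. After thinning, WIPI1, GABARAPL2 and MAP1LC3B were below the filter and not tested, so the 0 called there says nothing of them. The 2 of ICM against young became 1 without ICM replicate 1. With a mean of at least 50 counts or with thinning the count was also 1, but WIPI1 was then below the filter and not tested.

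Translational efficiency, the footprint level relative to the mRNA level, was tested as the difference between the assays in their response, with the lysate as a block. For SQSTM1 the log2 change was -0.27 in ICM against young (SE 0.19, 95% interval -0.65 to 0.11, edgeR adjusted p = 0.515), 0.24 in old against young (edgeR adjusted p = 0.631) and -0.51 in ICM against old (edgeR adjusted p = 0.306). Without the 3 libraries that stood apart, the first of these was -0.03 for SQSTM1. For MAP1LC3B, whose mRNA rose in ICM while its footprints did not pass, the change was -1.16 (SE 0.35, 95% interval -1.84 to -0.47, edgeR adjusted p = 0.0672). This value for MAP1LC3B rested on 27.2 ICM footprints in all, and on reads that MAP1LC3B2 shares. It passed under 5 of 19 alternatives, with an edgeR adjusted p of 0.0169 without the replicate block and 0.0218 with the copies summed.

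Of the 7 members tested in both assays, 0 passed for translational efficiency by edgeR in any of the 3 comparisons, where 2.45%, 1.45% and 0.260% of 4618 genes were called, and DESeq2 also called 0. At an unadjusted p under 0.05, edgeR had 1 in ICM against young (MAP1LC3B), 0 in old against young and 2 in ICM against old (SQSTM1 and MAP1LC3B). The log2 changes of the members ranged from -1.16 to 0.10 in ICM and from -0.37 to 0.24 in old against young, and from -0.78 to 0.16 in ICM against old.

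**Figure D4:**
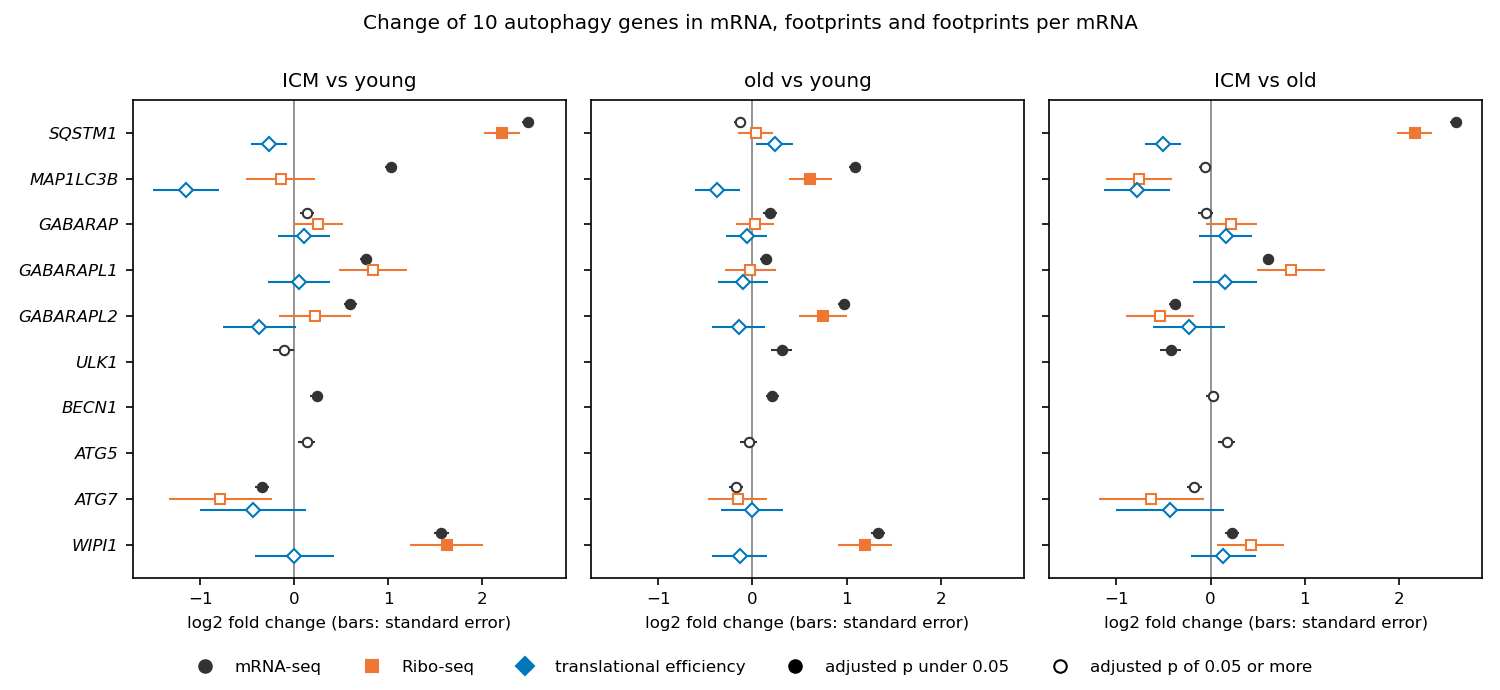
Log2 change of each member in mRNA-seq, Ribo-seq and translational efficiency for the 3 comparisons, with bars of 1 SE and filled points where the edgeR adjusted p was under 0.05. SQSTM1 stood at 2.48 in mRNA-seq and 2.21 in Ribo-seq for ICM against young, and no translational efficiency point is filled.

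The wider list showed where in the pathway other genes moved. Of its other 50 genes, 48 passed the mRNA-seq filter (all but MAP1LC3C and RETREG1), and 40 changed in ICM against young (34 up, 6 down), where 71.0% of all genes were called (34.9% up). In old against young 36 changed (30 up, 6 down), against 66.1% of all genes (32.4% up), and in ICM against old 25 changed (15 up, 10 down), against 63.3%. Their medians were 0.32, 0.35 and -0.02 on the log2 scale, beside -0.01 for all genes in each comparison. The counts called were somewhat above the share of all genes against young, mostly upward, and below it in ICM against old. By role, members counted in, 8 of 10 cargo receptors and 5 of 6 ATG8 genes rose in ICM against young, as did 7 of 10 conjugation enzymes and 7 of 9 genes of lipid binding and membrane supply. In old against young, the same roles had 8 of 10, 6 of 6, 3 of 10 and 7 of 9 genes higher. Of the initiation kinase complex, 2 of 5 genes rose in each comparison with young. Of the lipid kinase complex, 4 of 8 rose and 2 fell in ICM against young, and 4 rose and 3 fell in old against young. No test was made between roles, and the ATG8 count includes MAP1LC3B2, whose coding reads equal those of MAP1LC3B in most libraries.

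Cargo receptors other than SQSTM1 changed in differing ways. BNIP3, a mitophagy receptor, had mRNA at 122, 205 and 348 CPM in young, old and ICM (means, n = 3), a log2 rise of 1.51 in ICM against young (SE 0.069). CALCOCO2 (NDP52), a receptor for bacteria and mitochondria, was at 72.5, 169 and 77.8 CPM, which was 1.22 higher in old than in young and 1.12 lower in ICM than in old (log2 -1.12). OPTN, another ubiquitin-binding receptor, was lower in ICM (129 CPM) than in old (212 CPM), and TAX1BP1 was higher (223 against 157 CPM, log2 0.50). So unlike SQSTM1, CALCOCO2 and OPTN (148 CPM in young) were highest in old.

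Among the enzymes that process ATG8 proteins, ATG4A rose in both, from 11.7 CPM in young to 31.5 CPM in old (log2 1.46) and 24.3 CPM in ICM (log2 1.08). ATG4C rose in ICM to 17.0 from 8.03 CPM (log2 1.07) and was 0.85 higher there than in old. Some genes of the lipid kinase complex fell, while others rose as counted above. AMBRA1, a regulator of BECN1, fell from 22.7 CPM to 13.8 CPM in ICM (log2 -0.72) and to 16.3 CPM in old (log2 -0.48). ATG14 (log2 -0.48) and PIK3R4 (log2 -0.47), subunits of the lipid kinase complex, fell in old. At 21.2, 15.1 and 17.1 CPM in young, old and ICM, ATG14 was lower than young in ICM too. ATG2B, which moves lipid to the membrane, fell in ICM (log2 -0.37), and VMP1, an endoplasmic reticulum protein needed to form autophagosomes, was lower in ICM than in old (log2 -0.57). All the log2 changes given here passed the threshold with no overlap between the compared groups.

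Of the transcription factors of autophagy and lysosome genes, MITF averaged 21.8, 44.8 and 43.4 CPM in young, old and ICM (log2 1.03 in old against young). FOXO3 averaged 50.2, 39.1 and 40.4 CPM (log2 -0.32 in ICM against young), so both genes moved alike in old and ICM. All 4 factors of the list were called in both comparisons with young, where 71.0% (ICM) and 66.1% (old) of all genes were. TFEB, which was singled out after its values were seen and had a mean under 5 CPM, fell further than AMBRA1, being lower in ICM than in young by 1.35 (log2 -1.35, SE 0.20, edgeR adjusted p = 2.69e-06). In Ribo-seq, 22 of the other 50 genes were tested, and 6 changed in ICM against young (26.6% of all genes called), 5 in old against young (36.3%) and 3 in ICM against old (13.4%), near or below the share of all genes. With 1 replicate left out these counts ran from 1 to 8, 0 to 8 and 1 to 6. Those higher in ICM against young were ATG9A (log2 1.53), BNIP3 (1.44), TOLLIP (1.38), WIPI2 (1.26) and ATG13 (1.20). They rested on 45, 119.5, 38, 42 and 30 ICM footprints in all, in that order, and for ATG13 the ICM and young values overlapped. The one that fell, RB1CC1, a ULK1 complex scaffold, had 3, 41 and 84 footprints in young and 3, 0 and 0 in ICM, with mRNA between 75.8 and 95.2 CPM in all libraries. It was also the only one of the 22 called for translational efficiency, in ICM against young. None of the wider list was called for it with DESeq2. With a mean of at least 50 counts, with only the compared groups or with thinning none was called either. RB1CC1 was then below the filter and not tested, so these settings say nothing of it.

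**Figure D5:**
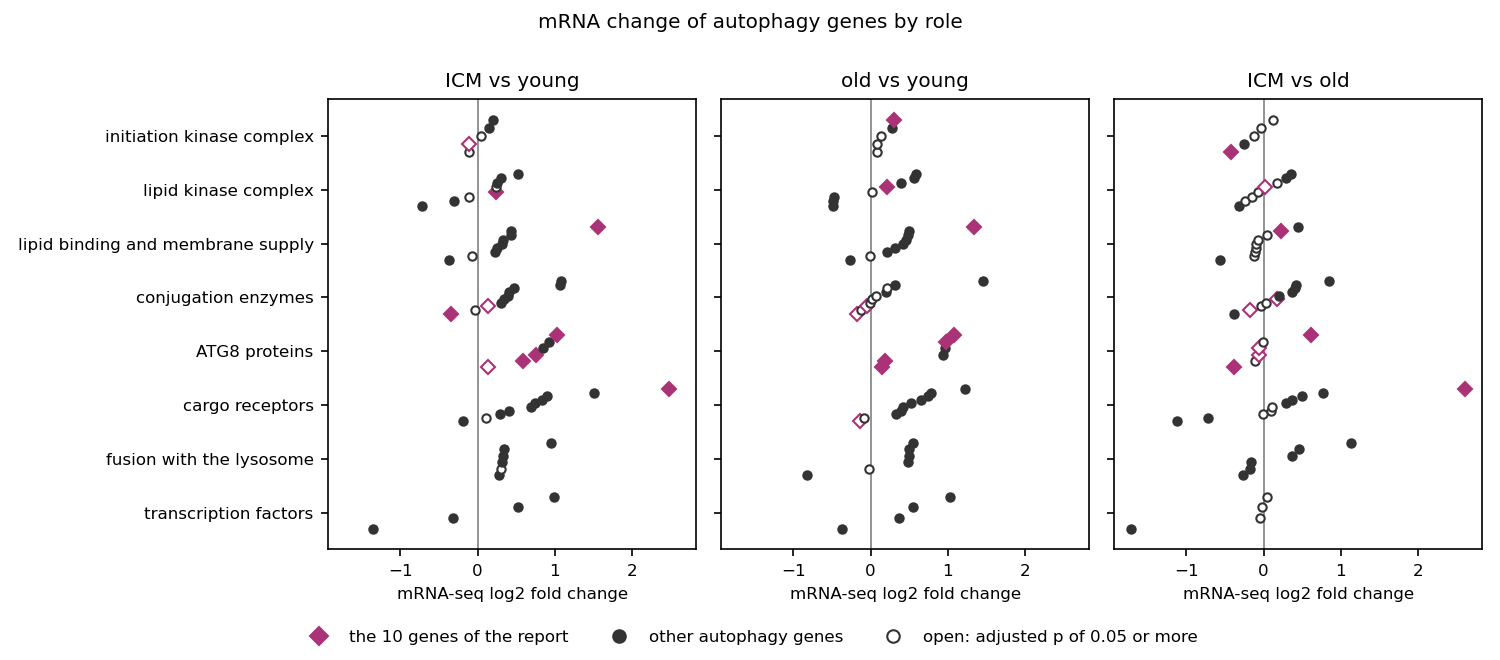
mRNA-seq log2 change of each gene of the wider autophagy list by role, for the 3 comparisons, with diamonds for the 10 members and open symbols for genes that did not pass the threshold. Most points lie above 0 against young, with medians of 0.32 and 0.35 for the genes other than members, and around 0 for ICM against old.

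Genes whose mRNA followed a member most closely over the 9 mRNA-seq libraries were listed by Pearson's r of log2(CPM + 1) among 9480 genes, as a description, since the 9 points fall into 3 groups and share library effects. SQSTM1 was most like EPHX1 (r = 0.999), AKR1B10 (0.998) and AKR1C2 (0.998), detoxifying enzymes, the last of which has near-identical relatives. EPHX1 averaged 43.6, 33.9 and 409 CPM in young, old and ICM, and AKR1C2 12.7, 7.63 and 1381 CPM. GABARAPL1 was most like METTL8 (0.997), PRDX1 (0.995) and COA1 (0.994), of which PRDX1, a peroxide-removing enzyme, averaged 454, 553 and 1421 CPM. MAP1LC3B was most like CSGALNACT2 (0.996), PLOD2 (0.996) and RFK (0.996), and WIPI1 was most like TMED3 (0.997), TCTA (0.997) and CSGALNACT1 (0.996).

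Promoter letters are shown for the members that rose in ICM and hold a match to TGANNNNGC. The pattern is a loose form of the core of the antioxidant response element, which NRF2 binds. GABARAP and ATG5, which did not pass in ICM against young, also held matches, and their letters are not shown. Whether NRF2 had a part in any rise was not tested. RefSeq promoters on GRCh38.p14, from 250 bases before the start to 50 after it, were searched on both strands. The motif was found in 5 of the 13 promoters of the members (those of SQSTM1, MAP1LC3B, GABARAP, ATG5 and WIPI1), and in 41.8% of all 35116 promoters of that length. The match is in capitals in each line.
SQSTM1, chr5:179820705-179820734, + strand: gggtcagcaaTGAGGGGGCcgggagacctg
SQSTM1, chr5:179820756-179820785, + strand: gggagagtagTGAAGGGGCctctgcagggc
MAP1LC3B, chr16:87392280-87392309, + strand: gcgagtcaccTGACCAGGCtgcgggctgag
WIPI1, chr17:68457453-68457482, - strand: ggcgggctgcTGAGGTGGCtgtcgccggct
WIPI1, chr17:68457651-68457680, - strand, reverse complement of the motif: caggggccccGCCCTATCAggtgctctggt
So short a motif is common, and a match is a description of the letters only. The palindromic CLEAR motif, named for lysosomal genes, had 0 matches in 13 promoters of the members (0.353% of all promoters) and the shorter E-box CACGTG, which lies inside it, also 0 (7.26% of all promoters).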

How the data were processed

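The authors deposited, for each of 18 libraries, estimated counts of reads per gene symbol, with separate values for the 5′ UTR, CDS and 3′ UTR and no scaling to depth. Fractional values made up 14.1% to 23.2% of all values above 0, by library, and how reads with several matches were divided is not given in the sources used here. The submitters' processing notes name GRCh37, STAR 2.6.0c, featureCounts, DESeq2 and deepTools without their roles. Per the study's methods, lysates were made with cycloheximide, part of each was kept for poly(A) mRNA-seq, and CDS footprints were analysed with anota2seq, which was not used here.

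CDS values were used for Ribo-seq and the sum of 5′ UTR, CDS and 3′ UTR for mRNA-seq, rounded to whole numbers. Each assay was fitted with edgeR 4.0.16 in R 4.3.3 (quasi-likelihood, TMM, filterByExpr, all 9 libraries), and two-sided p-values were adjusted over all genes (Benjamini-Hochberg, threshold 0.05). SE was the size of the log2 change divided by the square root of the F value of its test. The 95% intervals took a normal spread with this SE, so they are somewhat narrower than the p-values imply. Translational efficiency was the interaction of assay and condition over 18 libraries, blocked by lysate, a pairing that rests on the methods. The deviations of paired libraries correlated with r between -0.0663 and 0.110. Limma 3.58.1 supplied functions that edgeR uses, and DESeq2 1.42.0 was an alternative, beside RLE scaling, other filters, a threshold of 0.15, fits with only the compared groups, CDS reads only or UTRs added, thinning, the replicate block, leaving out each replicate, and leaving out young 1, old 2 and ICM 3. Summing near-identical copies was added after the data were seen.

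Named genes were all 10 members, for each mRNA-seq comparison the 3 largest rises and falls of the wider list among called genes of at least 5 CPM without overlap between groups, and for 4 members the 3 genes of at least 10 CPM with the most similar pattern. The members and lists were chosen with earlier results of these data known. Gene models were GENCODE v44lift37 on GRCh37, and promoters RefSeq on GRCh38.p14, where all 10 members matched. On simulated counts with a 2-fold change set for 200 genes between ICM and young, 100% of the changed genes were recovered in mRNA-seq (12974 genes, 9 false calls), 37% in Ribo-seq (4246 genes, 2 false calls) and 39.5% for translational efficiency (4219 genes, 2 false calls).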

Additional observations from a re-analysis of the deposited data

How the results depend on the processing

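The rise of SQSTM1 in ICM kept its direction and passed under all alternatives run, from 2.46 to 2.52 in mRNA-seq and from 1.97 to 2.46 in Ribo-seq against young. Single-gene results gave the same call in 974 cases, gained it in 26, lost it in 36 and changed sign in 30, and of the counts 289 stayed within 1.5 times and 65 did not. None of the mRNA-seq counts was among those 65. The cause of these moves was not tested, beyond the fewer genes or reads that filters and thinning leave. Libraries of different conditions with the same replicate number share only that number by the labels. Their deviations correlated with r from -0.218 to 0.289 in mRNA-seq (over 0.1 in 5 of 9 pairs) and 0.0002 to 0.0345 in Ribo-seq (0 of 9), and a library correlated best with its own number in 10 of 18 cases in mRNA-seq and 14 of 18 in Ribo-seq, a hint from the data only. In the self-test, 37% of 2-fold changes were recovered in Ribo-seq, and the parts of depth and of spread between libraries in this were not separated.

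Members called in Ribo-seq numbered 2 in ICM against young, 1 with a mean of at least 50 counts, 1 with thinning and 1 to 2 with a replicate left out. In old against young 3 became 0 with DESeq2, 1 with the replicate block, 0 with thinning and 0 to 3 with a replicate left out (0 without young 2, 1 without young 3 or old 1). WIPI1 was not tested with a mean of at least 50 counts or with thinning, nor were MAP1LC3B and GABARAPL2 with thinning. In ICM against old 1 became 2 at 0.15. For translational efficiency in ICM against young, 0 became 1 with a mean of at least 50 counts, at 0.15, with no replicate block and with copies summed, and 0 to 1 with a replicate left out (1 without young 1).

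In the wider list, Ribo-seq calls in ICM against young were 6, 11 at 0.15, 1 with thinning and 1 to 8 with a replicate left out. In old against young they were 5, 1 with DESeq2, 2 with no filter, 1 with a mean of at least 50, 12 with only the compared groups, 8 at 0.15, 2 with the replicate block, 3 with UTRs added, 0 with thinning, 8 without young 1, old 2 and ICM 3, and 0 to 8 with a replicate left out. In ICM against old they were 3, 1 with DESeq2, with a mean of at least 50, with only the compared groups or with the replicate block, 6 at 0.15, 0 with thinning, 5 without the 3 libraries and 1 to 6 with a replicate left out. For translational efficiency in ICM against young, 1 became 0 with DESeq2, a mean of at least 50, only the compared groups or thinning, 2 with no filter or without the 3 libraries, 4 at 0.15, 3 with no replicate block, and 0 to 2 with a replicate left out. RB1CC1, the gene called, was below the filter with a mean of at least 50, with only the compared groups and with thinning. In ICM against old, 0 became 2 at 0.15 and with no replicate block, and 0 to 1 with a replicate left out.

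Changes of sign were limited to differences that did not pass, though not all were small. In mRNA-seq, ATG5 in old against young was 0.038 from CDS reads only and -0.18 to 0.026 with a replicate left out. GABARAP in ICM against old was 0.069 without the 3 libraries and -0.13 to 0.029 with a replicate left out, and BECN1 was -0.045 to 0.069 there. In Ribo-seq for ICM against young, MAP1LC3B was 0.071 with UTRs added, GABARAPL2 -0.14 with the replicate block and -0.41 to 0.38 with a replicate left out, and GABARAP -0.027 to 0.24. For ICM against old, GABARAP was -0.056 to 0.22. For old against young, SQSTM1 was -0.026 with DESeq2, -0.026 with a mean of at least 50, -0.0050 with UTRs added, -0.074 with thinning and -0.18 to 0.17 with a replicate left out. GABARAP was -0.0017 with RLE scaling, -0.039 with a mean of at least 50, -0.033 without the 3 libraries and -0.046 to 0.12 with a replicate left out. GABARAPL1 was 0.0058 with only the compared groups, 0.058 with copies summed, 0.00039 without the 3 libraries and -0.21 to 0.061 with a replicate left out.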

Other observations

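GABARAPL1 footprints lay in part in the 5′ UTR, with a share of 19.7% ± 7.66 (mean ± SD, n = 3) in young libraries, 6.55% ± 6.86 in old and 6.67% ± 11.5 in ICM ones, over 176, 154 and 39 reads in the 5′ UTR, CDS and 3′ UTR together. The ICM share rested on 1 read, in ICM 3, beside 4 in the CDS. Young 1 had 1 read in the 5′ UTR beside 2 in the CDS, and old 2 had 0 beside 2. SQSTM1 had 0.812% ± 0.903, 0.0478% ± 0.0828 and 0% of its footprints in the 5′ UTR. MAP1LC3B and GABARAPL1 had 68.7% ± 2.97 and 66.3% ± 1.70 of their young mRNA-seq reads in the 3′ UTR, against 9.62% ± 1.14 for WIPI1.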
